A study of Rattus norvegicus with 9 samples.

Results

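The genes described here are the transcription factor NRF2 (Nfe2l2), its inhibitor KEAP1 (Keap1) and 8 antioxidant genes that NRF2 is known to activate, namely Nqo1, Hmox1, Gclc, Gclm, Txnrd1, Srxn1, Slc7a11 and Gpx2. They were chosen by symbol from the gene tables of a bulk RNA-seq study of rat liver. Of the 10 genes, 9 had a row among the 32883 genes of the tables, and 8 passed the filter on low counts, as did 14089 of all genes. The expression of Srxn1 was not analysed here, and Slc7a11 had too few counts for the test.

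NRF2 is a stress-responsive transcription factor that KEAP1 binds and hands over for degradation. When electrophiles or oxidants modify KEAP1, NRF2 is spared, enters the nucleus and binds antioxidant response elements together with a small MAF protein. Its targets make glutathione, reduce thioredoxin, detoxify quinones and break down haem, and the liver relies on them when handling toxins and bile acids. NRF2 is controlled mainly as a protein, which RNA-seq does not measure.

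The study asked what an extracorporeal circuit named UTOpiA does to the liver in acute-on-chronic liver failure (ACLF), in male Sprague-Dawley rats of 8 to 11 weeks. ACLF was induced by bile duct ligation (BDL), which blocks bile outflow, and 21 days later by an injection of the bacterial endotoxin LPS at 0.25 mg/kg. The 3 livers of the empty group came from ACLF rats whose blood passed through a circuit without cells or adsorber, and the 3 livers of the UTOpiA group from ACLF rats on a circuit with both parts. These parts were encapsulated hepatocyte-like organoids from genome-edited human induced pluripotent stem cells, and beads for granulocyte and monocyte apheresis. Circulation began 1 h after LPS and ran for 2 h, and these livers were taken 24 h after LPS. The 3 normal livers came from rats without ACLF, for which no sham operation or circuit is stated, so ligation, LPS and the circuit cannot be told apart in a comparison with them. The labels call the livers of each group biological replicates. For its liver analyses the paper drew rats at random from the survivors of both ACLF groups. It reports that mortality was very high among empty rats by 24 h, and that survival was highest with UTOpiA. The ACLF groups may thus differ in how far their rats were selected by survival. The part of such selection in the values of UTOpiA against empty livers was not tested.

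Between 14241172 and 17321677 reads were counted per library. Per-liver values are normalised CPM (counts scaled to sequencing depth) unless stated otherwise, and levels of different genes are compared only in TPM, a share of all transcripts that is scaled by gene length. A gene was called when edgeR gave an adjusted p under 0.05 together with a change of more than 2-fold. All libraries held abundant hepatocyte RNA, with albumin (Alb) between 115000 and 127000 TPM in normal livers, 12800 and 33600 in empty livers and 13000 and 29900 in UTOpiA livers. Hepatocyte markers summed to 152658 to 164591 TPM in normal livers, against 31537 to 57428 in empty livers and 37170 to 57351 in the UTOpiA group, and 7 of 10 were called below normal in the empty group, beside 11.1% of all genes. The second empty library stood apart from the others of its group. By a chi-square of their counts per degree of freedom it was at 226 and 176 from the first and the third, which were at 46.8 from each other, against 17.9 to 25.5 among normal and 72.5 to 99.4 among UTOpiA libraries. Its hepatocyte markers summed to 57428 TPM, against 34206 and 31537 in the first and the third. In such bulk samples, fewer cells of a type and less RNA per cell cannot be told apart.

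The promoters of 9 of the 10 genes were found in the RefSeq table of the GRCr8 build. They were searched for the core of the antioxidant response element, TGACNNNGC on one strand or GCNNNGTCA on the other. In the 250 bases before the start of transcription, 3 of 9 genes held a match (Gpx2, Gclm and Txnrd1), against 10.1% of all 33469 promoters. None of these matches overlapped an AP-1 motif (TGAGTCA or TGACTCA), which stood in 4.63% of all promoters within 300 bases and, of the 9 genes, in that of Srxn1. The windows of Gpx2 (minus strand, chr6:101230034-101230283), Gclm (plus strand, chr2:213031885-213032134) and Txnrd1 (minus strand, chr7:22755905-22756154, one of a pair of starts) are shown because they hold the match, with the match in capitals. That of Gclc (plus strand, chr8:87510226-87510475) is shown because Gclc encodes the partner subunit of Gclm and its window holds no match.
Gpx2: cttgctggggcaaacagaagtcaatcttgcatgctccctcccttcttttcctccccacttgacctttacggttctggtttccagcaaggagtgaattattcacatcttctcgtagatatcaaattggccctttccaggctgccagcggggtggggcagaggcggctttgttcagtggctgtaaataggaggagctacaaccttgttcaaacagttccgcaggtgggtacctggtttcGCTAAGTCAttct
Gclm: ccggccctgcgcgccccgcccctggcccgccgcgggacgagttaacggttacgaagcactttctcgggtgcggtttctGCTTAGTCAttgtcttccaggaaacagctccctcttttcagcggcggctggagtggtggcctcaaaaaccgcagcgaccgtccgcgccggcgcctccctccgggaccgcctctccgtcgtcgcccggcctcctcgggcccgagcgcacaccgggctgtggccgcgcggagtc
Txnrd1: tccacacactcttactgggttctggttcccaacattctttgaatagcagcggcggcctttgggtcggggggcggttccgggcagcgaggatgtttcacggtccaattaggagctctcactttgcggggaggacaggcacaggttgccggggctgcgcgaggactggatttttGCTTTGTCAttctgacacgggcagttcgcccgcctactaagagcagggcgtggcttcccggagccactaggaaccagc
Gclc: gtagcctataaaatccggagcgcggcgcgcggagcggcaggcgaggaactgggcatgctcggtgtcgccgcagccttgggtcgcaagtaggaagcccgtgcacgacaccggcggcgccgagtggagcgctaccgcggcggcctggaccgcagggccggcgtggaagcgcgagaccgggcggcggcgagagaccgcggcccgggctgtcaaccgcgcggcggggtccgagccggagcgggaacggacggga
The match began 13 bases before the start in Gpx2, 172 bases before it in Gclm and 78 bases before it in Txnrd1. A match describes the letters of the window and is not evidence of a bound site.

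In normal livers the genes fell into distinct levels per length. Gclc (140 ± 18.7 TPM, SD, n = 3) and Gclm (137 ± 11.9 TPM) were the highest and overlapped each other. Nfe2l2 followed at 89.6 ± 19.9 TPM, separate from its neighbours. Txnrd1 (46.6 ± 3.73 TPM), Nqo1 (36.2 ± 23.3 TPM), Keap1 (25.2 ± 1.78 TPM) and Hmox1 (23.6 ± 2.79 TPM) came next, each overlapping its neighbour among them, and Gpx2 (1.64 ± 1.84 TPM) and Slc7a11 (0.0218 ± 0.0271 TPM) lay below all of these.

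The order was different in ACLF livers. In the empty group Hmox1 led at 356 ± 51 TPM, separate from Gpx2 at 135 ± 22.7 TPM, and Gclc stood seventh of 9 at 31.9 ± 16.2 TPM. From Gpx2 down to Keap1 (19.0 ± 1.81 TPM) each gene overlapped the next. In the UTOpiA group Hmox1 was again the highest at 256 ± 165 TPM, but overlapped Gclm at 112 ± 70.3 TPM. Gpx2 was at 59.1 ± 21.9 TPM, Gclc at 24.2 ± 2.31 TPM and Slc7a11 again the lowest at 0.0166 ± 0.0185 TPM.

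**Figure D1:**
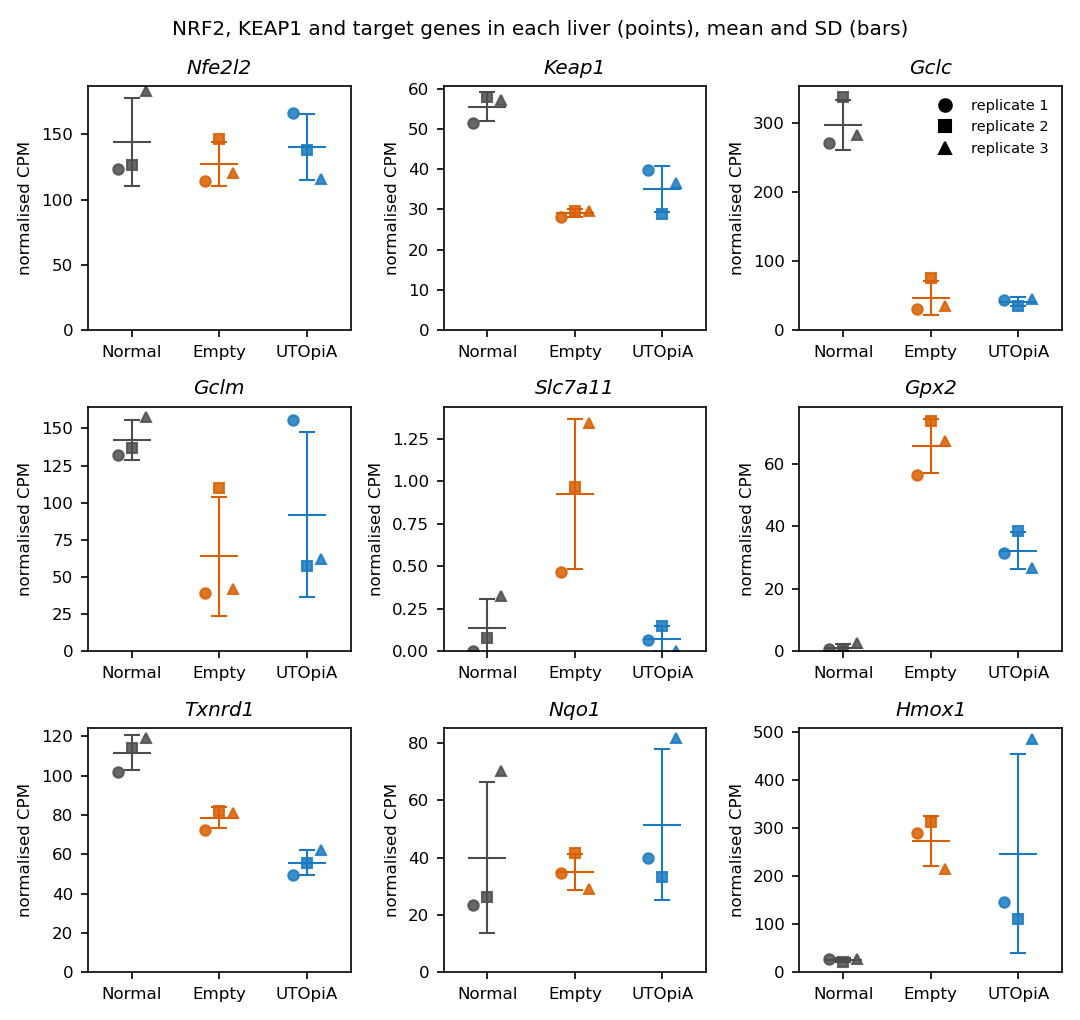
Normalised CPM (linear axis from 0) of the 9 genes with a row, in each of 3 normal, 3 empty and 3 UTOpiA livers. Symbols mark the replicate, and bars give the mean and SD of a group. Gclc, Keap1 and Txnrd1 are lower, and Hmox1 and Gpx2 higher, in every ACLF liver than in every normal liver.

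Set against normal livers, the empty group showed higher Hmox1 and Gpx2 and lower Gclc. These 3 calls among 8 genes tested (37.5%) compare with 31.8% of all genes called in the same comparison. Of all genes, 20.7% were called higher and 11.1% lower, so the share of the 8 genes called is close to that of the genome as a whole. That split was 2916 higher and 1560 lower genes, and 4477 and 682 when counts were scaled to library totals. Without the fold limit, 5 of the 8 passed, Keap1 and Txnrd1 being added, beside 48.4% of all genes. Normal and empty livers did not overlap in 6 of the 8 genes, as in 61.1% of all genes. DESeq2 called 4 of the 8, Gclm being added, beside 33.1% of all genes. By edgeR the log2 fold changes of the 8 had a median of -0.35, and those of all genes tested a median of 0.045.

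Nfe2l2 (ENSRNOG00000001548, chromosome 3, 62497571 to 62524996, minus strand) encodes NRF2 itself. Positions are given as in the tables, and the labels name the build rn6. Its CPM was 123, 127 and 183 in normal livers, 114, 146 and 120 in empty livers and 166, 138 and 116 in UTOpiA livers. The groups overlapped throughout. The log2 fold change from normal was -0.19 (95% CI -0.66 to 0.29, adjusted p = 0.491) in empty livers and -0.044 (-0.52 to 0.43, adjusted p = 0.886) in UTOpiA livers. UTOpiA against empty livers gave 0.14 (-0.33 to 0.62, adjusted p = 0.854).

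Keap1 (ENSRNOG00000020878, chromosome 8, 22250518 to 22259779, minus strand) encodes the adaptor that presents NRF2 to a ubiquitin ligase. Its CPM was 51.4, 58.0 and 57.1 in normal livers, 28.1, 29.7 and 29.7 in empty livers and 39.8, 28.8 and 36.6 in UTOpiA livers. Each ACLF liver was below each normal liver, and the ACLF groups overlapped. Keap1 was 1.901-fold lower in the empty group (log2 -0.93 ± 0.14 SE, adjusted p = 0.000803), which is under the fold limit of a call. It was 1.58-fold lower in the UTOpiA group (log2 -0.66, adjusted p = 0.00558). Neither passed the test by limma on log2(TPM + 1), with -0.39 (adjusted p = 0.0693) in the empty and -0.34 (adjusted p = 0.127) in the UTOpiA group. With library totals the edgeR values were -0.37 (adjusted p = 0.0839) and -0.31 (adjusted p = 0.165). Under these scalings the median log2 fold change of all genes was 0.44 and 0.60 for empty livers and 0.28 and 0.42 for UTOpiA livers. Relative to these medians Keap1 was at -0.83 and -0.97 for empty livers and at -0.62 and -0.73 for UTOpiA livers. The difference between the ACLF groups was 0.26 on the log2 scale (95% CI -0.051 to 0.58, adjusted p = 0.550).

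Keap1 and Nfe2l2 were also compared within each liver as a ratio of TPM. The ratio was 0.304, 0.333 and 0.227 in normal livers, 0.179, 0.148 and 0.180 in empty livers and 0.175, 0.152 and 0.230 in UTOpiA livers. All empty livers were below all normal livers, and one UTOpiA liver overlapped the normal range. The mean log2 ratio differed by -0.76 between empty and normal livers (two-sided exact permutation p = 0.1, the smallest that 3 against 3 allow). It differed by -0.64 between UTOpiA and normal livers (exact permutation p = 0.2) and by 0.12 between UTOpiA and empty livers (exact permutation p = 0.8).

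Glutathione is made in a first, rate-limiting step by glutamate-cysteine ligase, whose catalytic subunit is encoded by Gclc and whose modifier subunit is encoded by Gclm. Gclc (ENSRNOG00000006302, chromosome 8, 85059051 to 85097468, plus strand) had a CPM of 271, 337 and 281 in normal livers, 30.6, 75.5 and 35.7 in empty livers and 44.0, 34.7 and 46.0 in UTOpiA livers. No ACLF liver came near the normal range. Gclc fell 6.27-fold in the empty group (log2 -2.65, 95% CI -3.39 to -1.91, adjusted p = 0.000319) and 7.13-fold in the UTOpiA group (log2 -2.83, 95% CI -3.58 to -2.09, adjusted p = 0.000365). Without the second empty liver, which had the highest Gclc of the ACLF livers, the log2 fold change of the empty group was -3.16. The summed hepatocyte markers given above were lower in the ACLF livers and highest of the empty group in that liver, and their part in the result was not tested. From empty to UTOpiA livers the log2 fold change was -0.19 (95% CI -0.89 to 0.52, adjusted p = 0.875). Without the second empty liver it was 0.33 (adjusted p = 0.460).

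Gclm (ENSRNOG00000013409, chromosome 2, 225827504 to 225847874, plus strand) had a CPM of 132, 137 and 158 in normal livers. It was 39.3, 110 and 42.2 in empty livers and 156, 57.6 and 62.1 in UTOpiA livers. All empty livers were below all normal livers in CPM, although not in TPM, and the first UTOpiA liver lay within the normal range. The log2 fold change from normal was -1.15 (95% CI -2.25 to -0.059, adjusted p = 0.0766) in empty livers and -0.63 (-1.72 to 0.45, adjusted p = 0.322) in UTOpiA livers. Neither passed the test. By DESeq2 the first of these was a call (log2 -1.14, adjusted p = 0.0324). The DESeq2 call was lost without the first empty liver (-0.89, adjusted p = 0.143) and without the third (-0.92, adjusted p = 0.145). By edgeR a call was gained without the second empty liver (-1.81, adjusted p = 0.00821) and without the first UTOpiA liver (-1.16, adjusted p = 0.0334), and in the other 7 omissions of 1 library the adjusted p was between 0.0792 and 0.205. Without the first UTOpiA liver the change in the UTOpiA group was -1.26, a call by DESeq2 (adjusted p = 0.0137) and not by edgeR (adjusted p = 0.0539). From empty to UTOpiA livers the log2 fold change was 0.52 (95% CI -0.56 to 1.61, adjusted p = 0.742), and -0.10 (adjusted p = 0.984) without the first UTOpiA liver.

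The ratio of Gclm to Gclc TPM was 1.00, 0.831 and 1.15 in normal livers, 2.62, 2.99 and 2.43 in empty livers and 7.26, 3.40 and 2.76 in UTOpiA livers. Every ACLF liver had a higher ratio than every normal liver, and the ratio was steadier among the empty livers than either gene. The mean log2 ratio was 1.44 higher in empty livers and 2.05 higher in the UTOpiA group than in normal livers (each exact permutation p = 0.1). Between the ACLF groups it differed by 0.61 (exact permutation p = 0.2).

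**Figure D2:**
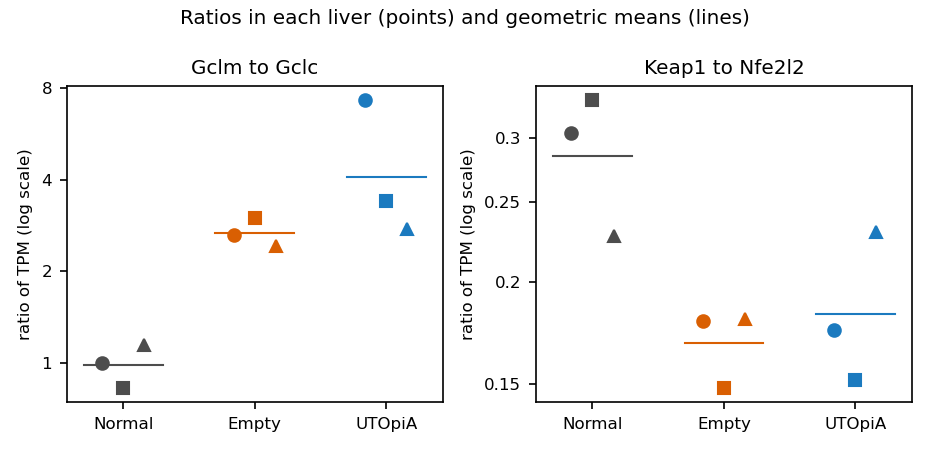
Ratio of TPM of Gclm to Gclc (left) and of Keap1 to Nfe2l2 (right) in each of 9 livers, on log axes, with a symbol for each replicate as in the plot of the single genes and a line at the geometric mean. The Gclm to Gclc ratio is between 0.831 and 1.15 in normal livers and between 2.43 and 7.26 in ACLF livers, while the Keap1 to Nfe2l2 ratio of the UTOpiA group reaches the lowest normal value.

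Slc7a11 (ENSRNOG00000010210, chromosome 2, 139453774 to 139528162, minus strand) encodes the cystine transporter that supplies cysteine for glutathione. It was close to the limit of detection, taken as 3 counts in a library. Its counts were 0, 1 and 4 in normal livers, 9, 18 and 28 in empty livers and 1, 3 and 0 in UTOpiA livers. Each empty liver exceeded each liver of the other groups (exact permutation p = 0.1 for either comparison on CPM). It failed the count filter, and with no filter the adjusted p was 0.0517 for the empty group against normal livers and 0.398 for the UTOpiA against the empty group. With 1 library left out, Slc7a11 passed the filter in 7 of 9 edgeR fits, through the counts of the empty livers alone, so these fits give no support to a rise there. Their adjusted p for the empty group against normal livers ran from 0.0268 (without the third normal liver) to 0.123 (without the second) and was a call in 4.

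Gpx2 (ENSRNOG00000055672, chromosome 6, 99839960 to 99843245, minus strand) encodes a glutathione peroxidase best known from the epithelium of the gut. It had the largest change of the 8 genes tested. Counts were 9, 1 and 32 in normal livers, or 0.787, 0.0808 and 2.62 CPM. The CPM was 56.5, 73.5 and 67.3 in empty livers and 31.5, 38.4 and 26.6 in UTOpiA livers. Normal, UTOpiA and empty livers formed 3 separate ranges in rising order. Gpx2 rose 56.0-fold in the empty group (log2 5.81, 95% CI 4.34 to 7.28, adjusted p = 0.000266) and 27.5-fold in the UTOpiA group (log2 4.78, 95% CI 3.35 to 6.21, adjusted p = 0.000807). Without the third normal liver, which had the most counts of the normal group, the log2 fold changes were 7.25 and 6.22.

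The 3 UTOpiA livers were all below the 3 empty livers in Gpx2, with a log2 fold change of -1.03 (95% CI -2.14 to 0.086, adjusted p = 0.511). This was not a call, and 5.97% of all genes were separate between the groups in that direction. Markers of cholangiocytes, the bile duct cells, were higher in ACLF livers, as was Gpx2, but their sums overlapped between the ACLF groups. Those of macrophages, stellate cells and red blood cells, given below, were higher in ACLF livers too. Of these, only the erythroid sums formed 3 separate ranges in the order of Gpx2. Cholangiocyte markers summed to 24.1 to 53.5 TPM in normal livers, 348 to 715 in empty livers and 170 to 479 in the UTOpiA group, and 8 of the 9 tested were called above normal in the empty group, beside 20.7% of all genes. Some, such as Krt7 (0.0562 to 0.285 TPM) and Sox9 (0 to 0.272 TPM in normal livers), could pass the count filter only through the ACLF livers. Of the most abundant, Epcam was at 13.5 to 20.5 TPM in normal livers and 115 to 239 TPM in the empty group, while Onecut1 was at 8.99 to 28.5 TPM and 9.92 to 19.2 TPM. Their part in the Gpx2 result was not tested.

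Txnrd1 (ENSRNOG00000009088, chromosome 7, 26946125 to 26984400, minus strand) encodes the cytosolic reductase that keeps thioredoxin reduced. Its CPM was 102, 114 and 119 in normal livers, 72.5, 82.2 and 81.2 in empty livers and 49.5, 55.6 and 62.4 in UTOpiA livers. The 3 groups did not overlap in CPM, in the order normal, empty and UTOpiA, whereas normal and empty livers overlapped in TPM. Against normal livers it was 1.42-fold lower in the empty group (log2 -0.51, 95% CI -0.82 to -0.19, adjusted p = 0.0139), which is under the fold limit, and this direction flipped to 0.015 in TPM and 0.053 with library totals. Relative to the median of all genes under those scalings, Txnrd1 was at -0.42 in TPM and -0.55 with library totals.

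In UTOpiA livers Txnrd1 fell 2.001-fold from normal (log2 -1.001, 95% CI -1.31 to -0.69, adjusted p = 0.000794), just past the fold limit. In 12 of 26 alternatives it was under that limit, with values from -0.997 to -0.64. Among these, leaving out the second normal liver gave -0.99, the third normal liver -0.95, the first UTOpiA liver -0.93 and the second UTOpiA liver -0.997. Between UTOpiA and empty livers the edgeR p of Txnrd1 was 0.00544 before adjustment, the lowest of the 8 genes (log2 -0.50, 95% CI -0.81 to -0.18, adjusted p = 0.346). Of all genes, 10.3% had an unadjusted p under 0.05. The difference was negative in all 26 alternatives, from -0.70 to -0.43, with adjusted p from 0.0314 to 0.816 and no change above 2-fold. The adjusted p of 0.0314 was by DESeq2 on all 9 libraries (log2 -0.52), and DESeq2 without the first empty liver gave 0.042.

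Nqo1 (ENSRNOG00000012772, chromosome 19, 38422164 to 38437180, plus strand) encodes a quinone reductase often used as a readout of NRF2 activity. Its CPM was 23.5, 26.3 and 70.3 in normal livers, 34.7, 41.5 and 29.0 in empty livers and 39.7, 33.1 and 81.8 in UTOpiA livers. The third normal liver and the third UTOpiA liver stood apart from the others of their groups, and all groups overlapped. The log2 fold change was -0.19 (95% CI -1.25 to 0.87, adjusted p = 0.759) for the empty group against normal livers and 0.36 (-0.70 to 1.42, adjusted p = 0.566) for the UTOpiA group against them. Between UTOpiA and empty livers it was 0.55 (-0.51 to 1.61, adjusted p = 0.721). These intervals include more than a 2-fold change in at least one direction.

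Hmox1 (ENSRNOG00000014117, chromosome 19, 14508616 to 14515456, plus strand) encodes haem oxygenase 1, which opens the haem ring and releases iron and carbon monoxide. Its CPM was 28.4, 22.1 and 26.9 in normal livers, 289, 314 and 215 in empty livers and 145, 111 and 485 in UTOpiA livers. Even the lowest ACLF liver was far above the highest normal one. Hmox1 rose 10.6-fold in the empty group (log2 3.40, 95% CI 2.19 to 4.61, adjusted p = 0.00113) and 9.57-fold in the UTOpiA group (log2 3.26, 95% CI 2.06 to 4.46, adjusted p = 0.0019). Without the third UTOpiA liver the latter was 2.31 on the log2 scale (adjusted p = 0.000331).

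Within the UTOpiA group Hmox1 had the widest spread of the 8 genes tested, with a coefficient of variation of 83.6% against 18.9% in the empty group. The first and second UTOpiA livers were below all empty livers and the third above them. The log2 fold change between the groups was -0.14 (95% CI -1.24 to 0.96, adjusted p = 0.947). It was 0.11 without the first UTOpiA liver and 0.21 without the second. Without the third it was -1.09 and not a call (adjusted p = 0.355), whereas DESeq2 gave -1.10 (adjusted p = 0.00329), in a fit that called 0.643% of all genes.

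Markers of macrophages and of red blood cells, both of which handle haem, moved with Hmox1 between normal and ACLF livers. Macrophage markers summed to 497 to 594 TPM in normal livers, 1818 to 2700 in empty livers and 922 to 2444 in the UTOpiA group, with 9 of 12 called higher in the empty group, beside 20.7% of all genes. Clec4f, a Kupffer cell marker and the most abundant of them in normal livers, was at 113 to 122 TPM there and 14.3 to 228 TPM in the empty group, while the complement gene C1qc went from 78.0 to 89.7 TPM to 410 to 665 TPM. Erythroid markers summed to 109 to 312 TPM, 2533 to 4055 TPM and 842 to 1411 TPM in the same order of groups. Of these, 5 of 6 tested were called higher in the empty group and Slc4a1, an anion exchanger of the red cell membrane, lower (log2 -1.44, adjusted p = 0.0244). Ahsp was at 0 in all normal livers, so it could pass the count filter only through the ACLF livers. Hbb-b1 was at 0 in every liver. The haemoglobin genes are near-identical copies, so reads could be split among them. The part of these cells in the Hmox1 result was not tested.

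**Figure D3:**
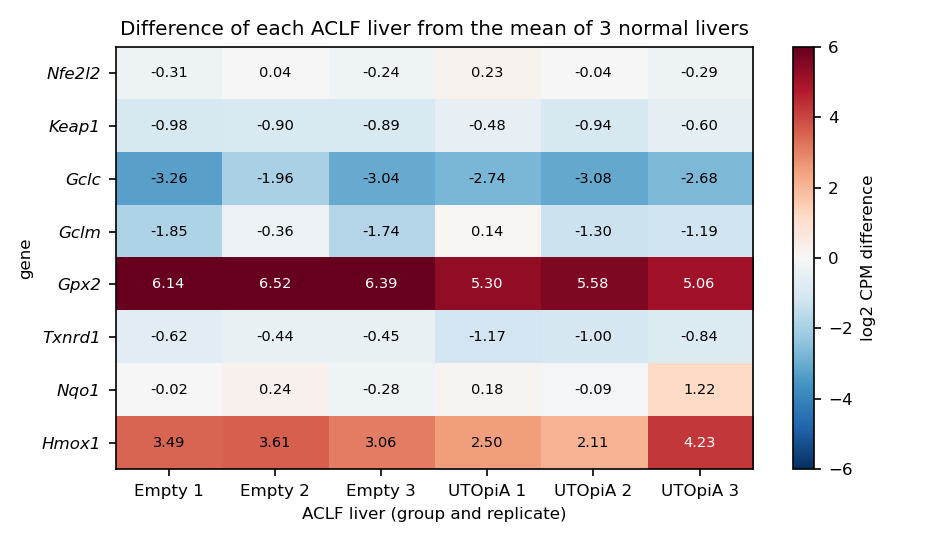
Difference in log2 CPM of each ACLF liver (columns, by group and replicate) from the mean of the 3 normal livers, for the 8 genes tested (rows), with red for higher and blue for lower. Gpx2 and Hmox1 are higher and Gclc, Keap1 and Txnrd1 lower in all 6 ACLF livers, whereas Gclm in the first UTOpiA liver (0.14) and Nqo1 in the third (1.22) differ from the other livers of that group.

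When UTOpiA livers were set against empty livers, 0 of the 8 genes were called by edgeR, as were 0 of all 14089 genes tested (0% of all). At an unadjusted p under 0.05 the count was 1 of 8, Txnrd1, against 10.3% of all genes. DESeq2 on all 9 libraries also called 0 of the 8, against 0.88% of all genes, although Txnrd1 passed its adjusted p there (0.0314) with a change under 2-fold. Livers of the 2 groups did not overlap in 2 of the 8 genes, Gpx2 and Txnrd1, both lower with UTOpiA, beside 12.1% of all genes in either direction (6.15% higher, 5.97% lower). The 95% intervals of Nfe2l2, Keap1, Gclc and Txnrd1 lay within 2-fold either way, and those of Gclm, Gpx2, Nqo1 and Hmox1 reached beyond it.

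UTOpiA livers against normal ones gave 4 calls among the 8 genes (50%), with Hmox1 and Gpx2 higher and Gclc and Txnrd1 lower. Of all genes 25% were called in this comparison, 18.2% higher and 6.81% lower (2563 and 959 genes, or 3437 and 486 with library totals). With no fold limit Keap1 was added, which gave 5 of 8 beside 39.5% of all genes. The 2 groups did not overlap in 5 of the 8 genes, and in 56.9% of all genes. The comparisons with normal livers share those livers, so their values are set side by side and are not independent of each other.

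**Figure D4:**
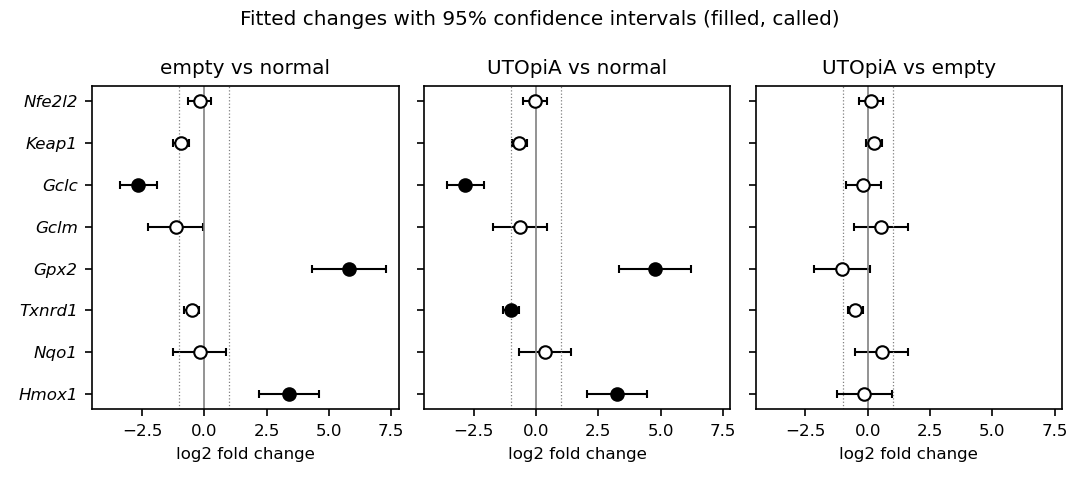
Log2 fold change and 95% confidence interval of the 8 genes tested in each of 3 comparisons, with filled points for calls and dotted lines at 2-fold. Hmox1, Gpx2 and Gclc lie beyond these lines against normal livers in both ACLF groups, and no point is filled between the UTOpiA and empty groups.

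The wider pathway was described by 5 further lists, from which 92 genes were tested. In the empty group against normal livers 44 of these were called (47.8%), with 24 higher (26.1%) and 20 lower (21.7%), beside 31.8%, 20.7% and 11.1% of all genes. The split depended on the scaling, with 29 higher and 9 lower under library totals and 25 and 10 by limma on log2(TPM + 1). In the UTOpiA group against normal livers 35 were called (38%), with 16 higher (17.4%) and 19 lower (20.7%), beside 25%, 18.2% and 6.81% of all genes. Here the higher calls outnumbered the lower ones under library totals (24 and 12) and by limma on log2(TPM + 1) (20 and 12). For UTOpiA against empty livers edgeR called 0 of the 92. DESeq2 called 2, beside 0.88% of all genes, and they are named here because of that count. These were Akr1b8 (log2 -2.07, adjusted p = 0.0287) and the mitochondrial superoxide dismutase Sod2 (log2 -1.82, adjusted p = 0.00346). DESeq2 no longer called Sod2 without the first UTOpiA liver, nor Akr1b8 without the first or the third liver of either ACLF group.

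Of 16 partners and regulators of NRF2, 2 were called above and 2 below normal livers in the empty group (median log2 fold change -0.069), a share of 25% beside 31.8% of all genes. Maff and Mafk, which encode small MAF proteins that pair with NRF2 or with its competitors on DNA, were the pair that rose. Maff was at 0.515, 0.545 and 0.419 TPM in normal livers and at 7.44, 60.6 and 7.01 TPM in empty livers, and rose 35.4-fold by edgeR (log2 5.15 ± 1.01 SE, adjusted p = 0.00343). The second empty liver stood far above the others, and without it the log2 fold change was 3.33 (adjusted p = 0.000181), while DESeq2 gave no adjusted p for Maff on all 9 libraries. Mafk rose 3.25-fold (log2 1.70 ± 0.26 SE, adjusted p = 0.000889). Bach2, a repressor of the same sites, fell by 1.82 on the log2 scale (adjusted p = 0.00458). Sqstm1, which encodes p62, a protein that draws KEAP1 into autophagy, fell by 1.12 (adjusted p = 0.0121), and by less than 2-fold without the first empty liver (-0.93, adjusted p = 0.0429). By limma on log2(TPM + 1) neither was a call, with Bach2 at -0.73 (adjusted p = 0.0422) and Sqstm1 at -0.65 (adjusted p = 0.0823). In UTOpiA against empty livers Maff was at -2.003 (adjusted p = 0.455), and at -0.19 (adjusted p = 0.837) without the second empty liver. Mafk was at -0.81 (adjusted p = 0.383), and its groups did not overlap.

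Other NRF2 target genes were called in both directions, with 5 higher and 9 lower of 31 tested (45.2%, beside 31.8% of all genes) and a median of -0.75. The malic enzyme gene Me1, a source of NADPH, fell 23.8-fold by edgeR (log2 -4.57 ± 0.39 SE, adjusted p = 6.9e-05), with mean levels of 373 TPM in normal and 22.4 TPM in empty livers. By limma on log2(TPM + 1) the change was -3.92. The glutathione transferase genes Gsta2 (19.1-fold, adjusted p = 0.000896) and Gsta3 (15.2-fold, adjusted p = 0.0018) fell, although close copies in this family may share reads. Without the second empty liver their log2 fold changes were -4.85 and -4.78, against -4.26 and -3.93 with it. The aldo-keto reductase gene Akr1b8 rose 12.5-fold (log2 3.64 ± 0.62 SE, adjusted p = 0.00173), and Cbr3, Gstp1, Abcc3 and Slc48a1 were the others called higher. Of these, 3 lost the call when single libraries were left out. For Cbr3 these were the first normal, the second normal or the third empty liver (adjusted p from 0.0509 to 0.0551), for Abcc3 the second normal, the third normal or the second empty liver (0.0505 to 0.0628), and for Slc48a1 the third normal, the first empty or the third empty liver (log2 from 0.83 to 0.99). With a replicate block in the edgeR fit Slc48a1 was at 0.997 and also not a call. Akr1b8 did not overlap between UTOpiA (mean 5.47 TPM) and empty livers (24.8 TPM), with a log2 fold change of -2.05 (adjusted p = 0.346), or -2.75 (adjusted p = 0.0758) without the second UTOpiA liver.

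Enzymes that use glutathione, thioredoxin or peroxide gave 6 higher and 8 lower calls of 30 (46.7%, beside 31.8% of all genes), with a median of -0.51. Ggt1, which encodes the gamma-glutamyl transferase that breaks down glutathione outside cells, rose 49.7-fold (log2 5.63 ± 0.37 SE, adjusted p = 4.09e-05). The peroxidase genes Gpx3 (30.1-fold, adjusted p = 2.9e-05) and Gpx8 (7.14-fold, adjusted p = 0.000185) rose with it. Catalase (Cat), the peroxisomal enzyme that splits hydrogen peroxide, fell 6.47-fold by edgeR (adjusted p = 0.0025), with mean levels of 2034 TPM in normal and 446 TPM in empty livers, and Gpx1 and Sod1 were among the others called lower. Between UTOpiA and empty livers Ggt1 did not overlap in CPM but overlapped in TPM (log2 -0.92, adjusted p = 0.357).

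Of 6 genes of haem breakdown and clearance tested, 3 were called in the empty group, all of them higher (50%, beside 20.7% of all genes). They encode carriers and a receptor of free haem and haemoglobin rather than enzymes of haem breakdown. Haemopexin (Hpx) rose 4.26-fold (adjusted p = 0.0033), the receptor gene Cd163 2.98-fold (adjusted p = 0.0131) and haptoglobin (Hp) 2.53-fold (adjusted p = 0.00864). The call of Cd163 was lost without the second normal liver (adjusted p = 0.0504) and without the first empty liver (log2 0.93).

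All 9 NADPH oxidase genes, whose products make superoxide and hydrogen peroxide, were called in the empty group, 8 higher and 1 lower, with a median of 3.06, beside 20.7% of all genes called higher and 11.1% lower. Of the 8, Duox2 was at 0 to 0.0416 TPM in normal and 0.365 to 1.6 TPM in empty livers. It could pass the count filter only through the ACLF livers, so its call gives no support to a rise. Ncf1 rose 22.6-fold, Rac2 10.8-fold, Cyba 8.43-fold and Ncf4 8.31-fold (adjusted p between 0.000178 and 0.00198), all subunits of the phagocyte oxidase. Without the first empty liver Ncf1 was at 3.88 on the log2 scale, against 4.50 with it. The 1 gene that fell was Nox4. Neutrophil markers summed to 6.01 to 8.87 TPM in normal livers, 831 to 2718 in empty livers and 5535 to 6700 in the UTOpiA group. Most of the sum in the UTOpiA group was Lcn2, which hepatocytes also make and which was at 2.95 to 5.03, 290.5 to 2523 and 5359 to 6310 TPM in the same order. Without Lcn2 the sums were 2.48 to 5.92, 196 to 1110 and 176 to 513 TPM. The macrophage markers given above were higher too. Of 11 neutrophil markers listed, the 7 that passed the count filter were all called higher. Those near 0 in normal livers, such as Cxcr2 (0 TPM) and Mmp8 (0 to 0.0964 TPM), could pass only through the ACLF livers. Their calls give no support to a rise. Mpo and Elane were at 0 in all normal livers and at 0 to 0.108 and 0 to 0.99 TPM in empty livers. The part of these cells in the result was not tested.

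**Figure D5:**
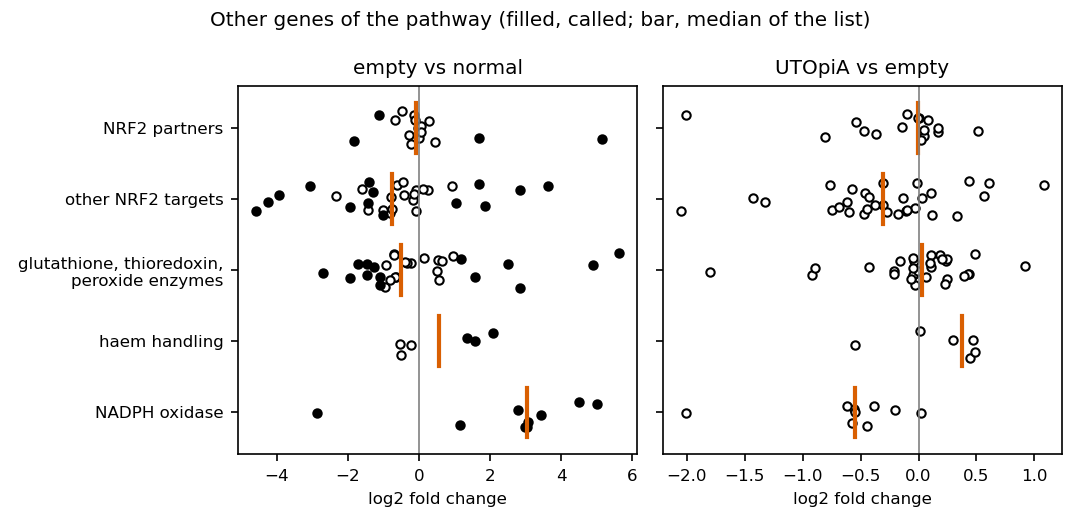
Log2 fold changes of the 92 genes of 5 further lists, 1 point a gene, for the empty group against normal livers (left) and the UTOpiA against the empty group (right), with different horizontal scales. Filled points are calls and orange bars the median of a list. NADPH oxidase genes lie mostly to the right on the left side (median 3.06), and no point is filled on the right side.

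The genes whose profile over the 9 libraries was nearest to that of each gene were sought among 12854 genes, by the root mean square difference of centred log2 CPM. The nearest to Gclc were Acsl5 (0.17), Bco2 (0.28) and Nox4 (0.28), against a median distance of 1.39 over all genes. Gclm was nearest to Gpld1 (0.18), Per3 (0.19) and the hepatocyte marker Cyp2e1 (0.23), against a median of 0.84. For Hmox1 the nearest were Egln3 (0.34), Bcl3 and Tnfrsf21 (both 0.47), against a median of 1.64. For Gpx2 they were Pla1a (0.77), Cdcp1 (0.81) and Blnk (0.84), against a median of 2.94.

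Txnrd1 was nearest to Tmem161b (0.079), Farsb and Usp10 (both 0.11), and Keap1 to Cox8a (0.075), Arhgef18 (0.076) and Ttyh2 (0.079). Nfe2l2 was nearest to Cep250, Nub1 (both 0.12) and Atp23 (0.13). Nqo1 was nearest to LOC108348065 (0.19), Catsper2 (0.24) and LOC691921 (0.28). The median distances over all genes were 0.57 for Txnrd1, 0.54 for Keap1, 0.47 for Nfe2l2 and 0.71 for Nqo1. The points share libraries and 3 groups of livers, so these distances describe the 9 livers and carry no test.

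Of the cells not described above, stellate cell and fibroblast markers were called higher in 8 of 10, T and B cell markers in 3 of 6, and endothelial markers in 1 of 7 with 1 lower, in the empty group against normal livers, beside 20.7% of all genes called higher and 11.1% lower. The endothelial share was 14.3% in each direction. Stellate cell and fibroblast markers summed to 115 to 138 TPM in normal livers and 542 to 1302 TPM over both ACLF groups.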

How the data were processed

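Bulk RNA-seq was carried out on 9 rat livers, 3 per group, which were assigned to groups by their titles. The authors deposited raw counts per gene, with no normalisation, and TPM scaled by gene length. The methods name Cutadapt 1.9.1, HISAT2 2.0.1 with the mouse build GRCm38 and featureCounts 2.6.0, whereas the submitters' processing notes name Trimmomatic, HISAT2, featureCounts and the rat build rn6. Whether counting used strand is not given in the sources used here, so overlapping and antisense genes may share reads.

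Counts were analysed in R 4.3.3 with edgeR 4.0.16. Genes passing filterByExpr were normalised by TMM and fitted over all 9 libraries with group means as coefficients, robust dispersions and the two-sided quasi-likelihood test. Adjusted p-values (Benjamini-Hochberg) cover all 14089 genes tested. TMM was preferred because the albumin share of counted reads ran from 13.3% to 14.9% among normal and from 1.54% to 3.91% among ACLF livers, which shifts values scaled to the library total. The scripts were tested on simulated data. Depth limits the precision of low genes, and a library with at most 3 counts of a gene was taken as at the limit of detection, for counting error only.

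Ratios were compared by two-sided exact permutation tests. All 10 genes are named. Of each further list (partners, other targets, glutathione, thioredoxin and peroxide enzymes, haem genes, NADPH oxidase), values are given for up to 4 called genes with the largest change in the empty group, separate groups and a mean of at least 1 TPM. Of the marker lists (hepatocytes, cholangiocytes, stellate cells and fibroblasts, macrophages, neutrophils, endothelial, erythroid, T and B cells), counts and summed levels are given. Some list genes that entered the counts are not reported here by name. Of the list genes, 173 matched by symbol, 5 by Entrez identifier and 4 had no match. The genes, lists and tests were chosen with earlier results of these data known.

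The alternatives were DESeq2 1.42.0, limma 3.58.1 on log2(TPM + 1) or log2(TPM + 0.1) with and without a filter on low values, median-of-ratios factors, library totals, an unfiltered fit, a stricter filter of 10 counts in each library, only the 6 libraries compared, a replicate block, no fold limit and each library left out. DESeq2 without each ACLF library was added after seeing the data.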

Additional observations from a re-analysis of the deposited data

How the results depend on the processing

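Hmox1, Gpx2 and Gclc were called against normal livers in both ACLF groups under every alternative that tested them, with log2 fold changes of 3.29 to 3.94, 5.24 to 7.25 and -3.16 to -2.11 in the empty group and of 2.31 to 3.61, 4.22 to 6.22 and -2.92 to -2.47 in the UTOpiA group. The filter of 10 counts in every library removed Gpx2. The genes called in the empty group against normal livers rose from 3 to 5 without a fold limit (Keap1 and Txnrd1 added), and ranged from 3 to 4 by edgeR and from 3 to 5 by DESeq2 when 1 library was left out. These counts include Slc7a11 where it passed the filter as a gene tested. It did so through the counts of the empty livers alone, so its calls give no support. In UTOpiA against empty livers the genes called stayed at 0 by edgeR when 1 library was left out, and ranged from 0 to 1 by DESeq2. In UTOpiA against normal livers they fell from 4 to 2 with 10 counts in every library. The further lists of 92 genes gave 2 calls between UTOpiA and empty livers by DESeq2, beside 0.88% of all genes. With 1 library left out they gave from 0 to 8 by DESeq2 and from 0 to 3 by edgeR. The 8 were without the second empty liver, where DESeq2 called 350 of 14398 genes higher and 142 lower. The edgeR count was 3 without that liver (Gstp1, Sod2 and Abcc2, named because of that count), where edgeR called 26 of all genes higher and 22 lower.

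Values that were not calls changed sign as follows. For empty against normal livers, limma on log2(TPM + 1), limma on log2(TPM + 0.1) and library totals gave 0.35, 0.35 and 0.37 for Nfe2l2, 0.48, 0.50 and 0.36 for Nqo1 and 0.015, 0.016 and 0.053 for Txnrd1. In the same order, Nfe2l2 was at -0.068, -0.069 and -0.022 in UTOpiA against empty livers and at 0.28, 0.28 and 0.35 in UTOpiA against normal livers. Without a filter on low values, limma on log2(TPM + 1) gave 0.35, 0.48, 0.015, -0.068 and 0.28 for these. The median of all genes was 0.44 by limma on log2(TPM + 1) and 0.60 with library totals for empty against normal livers. Relative to it, Nfe2l2 was at -0.092 and -0.23, Nqo1 at 0.045 and -0.24 and Txnrd1 at -0.42 and -0.55. Of these values only that of Nqo1 by limma kept a changed sign. For limma on log2(TPM + 1) without the filter the median was 0.25, under the values of Nfe2l2 and Nqo1 there. Limma on log2(TPM + 1) called 3202 genes higher and 690 lower in empty livers, and 2167 and 483 in UTOpiA livers, against normal ones. Between the ACLF groups DESeq2 called 124 genes of all and edgeR 0. With 10 counts in every library 1644 genes were higher and 1179 lower in empty livers. With 10 counts in every library Nfe2l2 was at 0.044 in UTOpiA against normal livers. The cause of the other changes was not tested.

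When 1 library was left out of the edgeR fit, Nfe2l2 ranged from -0.30 to 0.016 (empty against normal), from -0.0090 to 0.26 (UTOpiA against empty) and from -0.19 to 0.16 (UTOpiA against normal). Nqo1 ranged from -0.47 to 0.49 (empty against normal) and from -0.14 to 1.04 (UTOpiA against normal). In UTOpiA against empty livers, Hmox1 ranged from -1.09 to 0.21, Gclc from -0.42 to 0.33 and Gclm from -0.10 to 1.18. By DESeq2 for the same comparison, leaving out the first UTOpiA liver gave -0.016 for Nfe2l2, 0.098 for Hmox1 and -0.11 for Gclm. Leaving out the second UTOpiA liver gave 0.18 for Hmox1, and leaving out the second empty liver 0.30 for Gclc. In UTOpiA against normal livers, DESeq2 without the third UTOpiA liver gave 0.076 for Nfe2l2 and -0.13 for Nqo1.

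Same-numbered libraries correlated between -0.18 and 0.064 in their deviations from the group means, and libraries with different numbers between -0.19 and 0.29. With 3 livers a group these correlations cannot exclude that the numbers pair the samples. With the replicate block the calls were again 3, 0 and 4 of the 8 genes, Nqo1 was at 0.045 in the empty group against normal livers, and 2746 genes were higher and 1532 lower among all genes.

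With 3 livers a group, the 95% intervals of Gclm, Gpx2, Nqo1 and Hmox1 between the ACLF groups include changes of more than 2-fold. Slc7a11 was limited by its counts.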
